A study of Mus musculus with 8 samples.

Results

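The NF-kB family was described from 10 gene symbols: the subunit genes Nfkb1, Nfkb2, Rel, Rela and Relb and the inhibitor genes Nfkbia, Nfkbib, Nfkbie, Nfkbiz and Tnfaip3. They were chosen as a family by name, and their probe sets were found through the platform annotation. Of the 10 symbols, 9 had probe sets there, 19 of 45037 in all, and these 9 genes are described among 18193 genes of the arrays. Nfkb1 was not analysed here. The samples were CT26 cells, an established mouse colon tumour line labelled as epithelial, and RAW264 cells (RAW below), a macrophage line established from the mouse. There were 4 groups of 2 arrays: CT26 grown alone, CT26 grown with RAW cells, RAW grown alone and RAW grown with CT26 cells. In co-culture the RAW cells sat in a transwell insert, a cup with a porous floor that was set into the CT26 well 8 hours after seeding, so that dissolved molecules but not cells could cross. The groups carried no other agent, allele or treatment per the labels, and the length of co-culture is not given in the sources used here. Each group had 1 array of each of 2 replicate numbers. The numbers were taken here to mark 2 experiments, called experiment 1 and experiment 2, on grounds given with the processing.

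NF-kB is a family of transcription factors that act as pairs of subunits and bind short DNA sites called kappa B sites. Rela, Rel and Relb encode subunits that activate transcription directly, whereas Nfkb1 and Nfkb2 encode precursors whose shorter products pair with them. In resting cells the inhibitors of the IkB family hold the dimers in the cytoplasm, and signals from Toll-like, interleukin-1 and TNF receptors lead to the destruction of these inhibitors (the canonical route). A slower route through the kinase encoded by Map3k14 processes the Nfkb2 product and releases dimers with Relb (the non-canonical route). Several family genes, among them Nfkbia, Nfkbie, Nfkb2, Relb and Tnfaip3, are themselves targets of NF-kB. Transcript levels do not show how much of the protein is active or in the nucleus.

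Promoter windows are printed for the 4 family genes that differed between the lines (below), because family genes are themselves NF-kB targets and each of these windows holds a match to the kappa B consensus. Each window runs from 250 bases before to 50 bases after a transcription start, as given by RefSeq on GRCm38.p6, and is written along the gene from 5′ to 3′. Capitals mark matches to the consensus on either strand, and overlapping matches form 1 run of capitals. Nfkbie is on the plus strand at chr17:45555450-45555749, Nfkbia on the minus strand at chr12:55492598-55492897, Rel on the minus strand at chr11:23770920-23771219, and Nfkb2 on the plus strand at chr19:46304487-46304786, the window with the most matches of the 3 that this gene has.
Nfkbie: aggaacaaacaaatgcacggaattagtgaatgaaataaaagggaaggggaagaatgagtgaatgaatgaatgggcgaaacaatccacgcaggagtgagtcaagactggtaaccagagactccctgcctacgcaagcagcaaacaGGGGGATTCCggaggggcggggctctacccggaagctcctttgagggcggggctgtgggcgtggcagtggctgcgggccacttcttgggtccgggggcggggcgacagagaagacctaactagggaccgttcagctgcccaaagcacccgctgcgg
Nfkbia: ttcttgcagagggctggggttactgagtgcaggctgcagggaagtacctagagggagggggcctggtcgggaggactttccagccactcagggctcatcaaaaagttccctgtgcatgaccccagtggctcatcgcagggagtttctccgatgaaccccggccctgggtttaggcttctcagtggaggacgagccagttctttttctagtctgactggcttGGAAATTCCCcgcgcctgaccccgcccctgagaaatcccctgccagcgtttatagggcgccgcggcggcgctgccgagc
Rel: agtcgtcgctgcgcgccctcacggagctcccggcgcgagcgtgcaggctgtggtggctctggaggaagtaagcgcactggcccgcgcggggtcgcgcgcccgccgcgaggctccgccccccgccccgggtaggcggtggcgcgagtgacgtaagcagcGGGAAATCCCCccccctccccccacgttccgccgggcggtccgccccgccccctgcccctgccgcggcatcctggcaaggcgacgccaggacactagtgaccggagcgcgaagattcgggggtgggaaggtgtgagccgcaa
Nfkb2: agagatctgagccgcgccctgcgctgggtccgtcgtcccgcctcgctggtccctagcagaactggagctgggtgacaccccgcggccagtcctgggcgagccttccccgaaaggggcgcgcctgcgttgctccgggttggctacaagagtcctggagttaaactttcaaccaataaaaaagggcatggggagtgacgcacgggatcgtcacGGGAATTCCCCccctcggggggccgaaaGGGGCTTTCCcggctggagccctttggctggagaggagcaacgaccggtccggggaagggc

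The match in the Nfkbie window starts at position -106 from the transcription start, that of Nfkbia at -29, the run in the Rel window at -92 and the runs in the Nfkb2 window at -39 and -11. Of the 7 family genes with a window in the table, 5 held a match: these 4 and Tnfaip3. The windows of Nfkbib and Rela held none. The promoters of Relb and Nfkbiz were not analysed here. Counted by window, 7 of 10 family windows held a match, but the 2 windows of Nfkb2 that are not printed overlap each other and share 1 match. Among all 32851 windows of the same length, 8.46% held a match, and of the 27025 genes with such a window 9.55% had a match. A match is a description of the sequence, and its absence says only that these letters are not in the window.

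The unit throughout is the log2 expression value that the authors deposited, on which 1 unit is a doubling. Array medians lay between 5.88 and 5.94, and 2 arrays a group set the precision. The floor below which a gene was taken as too dim lay between 5.21 and 5.28, and 13196 genes, with all 9 family genes among them, were tested. The labels' cell types were checked with marker lists. All 12 macrophage markers were called higher in RAW when the lines were grown alone, and the mean level of the list was 5.97 to 6.06 in CT26 alone, within that range on both CT26 co-culture arrays, 12.58 to 12.82 in RAW alone and 12.40 to 12.73 in RAW co-culture. Of 12 CT26 markers, 7 of the 10 tested were called lower in RAW alone. The epithelial cadherin gene Cdh1 lay under the floor in both lines, and Epcam stood at 6.87 in CT26 alone and 6.88 in RAW alone, so these markers do not set CT26 apart as epithelial. The other epithelial genes were mixed: Krt20, Krt18 and Tjp1 stood at 11.54, 10.19 and 11.64 in CT26 alone and under the floor in RAW alone, whereas Krt8 stood at 5.93 and 5.80 (adjusted p = 0.503). Genes known from mesenchymal cells were also bright in CT26 alone, with Col1a2 at 13.55, Sparc at 12.65 and Col3a1 at 10.45. Of the lymphoid and endothelial markers, 2 passed the floor and 0 were called for co-culture in either line (limma, 0 at an unadjusted p under 0.05 without a block).

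**Figure D1:**
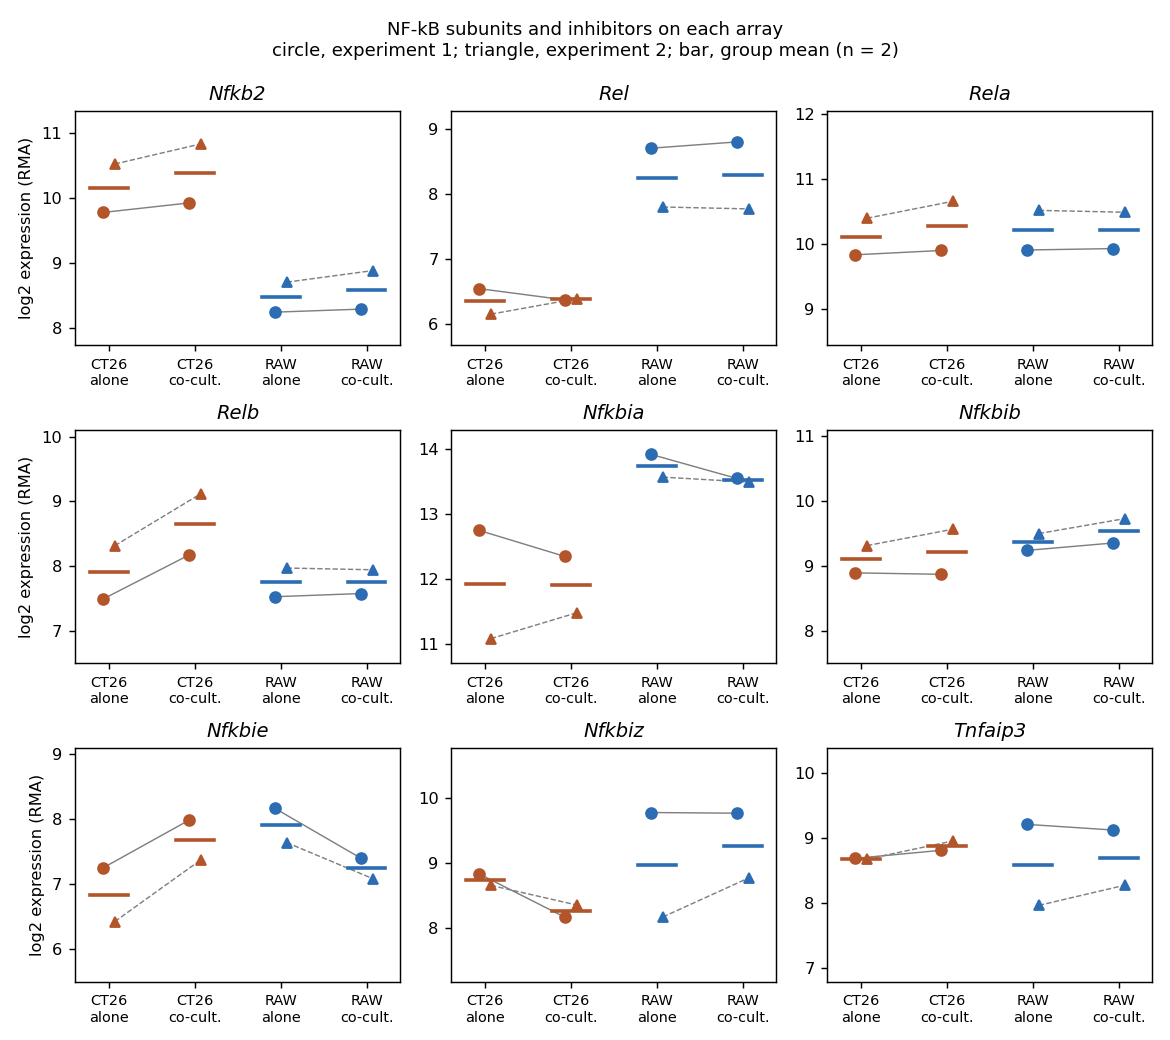
Log2 expression of the 9 family genes (vertical axes, the same span in each panel) on every array, by group (horizontal axes). Circles are experiment 1, triangles experiment 2, bars the means of 2 arrays, and grey lines join arrays of 1 experiment; Nfkbie slopes up in CT26 and down in RAW in both experiments, Relb slopes up in CT26, and Nfkb2 and Rel are separated by line.

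Among the subunits, Rela and Relb did not separate the lines when grown alone. Rela, the most broadly expressed activating subunit, had 9.83 and 10.39 in CT26 alone, 9.89 and 10.65 in CT26 co-culture, 9.90 and 10.51 in RAW alone and 9.92 and 10.48 in RAW co-culture (experiments 1 and 2). All 4 groups overlapped, and the value was higher in experiment 2 than in experiment 1 in every group, by 0.56 to 0.76. The co-culture change of Rela was 0.16 ± 0.36 (SE) in CT26 and -0.0033 ± 0.36 in RAW, and its difference between the lines grown alone was 0.098 ± 0.36. Each was less than its error in limma without a block. With each experiment as a block per line, which removes the shift between experiments, the SE was 0.090. None of these values passed there either (adjusted p = 0.899, 0.991 and 0.39). Within experiments the change was 0.07 and 0.26 in CT26 and 0.02 and -0.03 in RAW.

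Relb, the subunit of the non-canonical route, was the subunit with the largest co-culture change in CT26. It stood at 7.49 and 8.32 in CT26 alone and at 8.17 and 9.12 in CT26 co-culture. Within experiments it was higher in co-culture by 0.68 and 0.80, and the groups overlapped, with experiment 2 the higher one in each. In RAW it had 7.53 and 7.97 alone and 7.58 and 7.95 in co-culture, with changes of 0.05 and -0.03. The mean change in CT26 was 0.74 ± 0.39 (SE), or 1.67-fold, which did not pass in limma (adjusted p = 1.00). With each experiment as a block per line, which removes the shift between experiments, the SE was 0.086 and Relb ranked 5 of 13196 genes by p in CT26, yet it did not pass there either (adjusted p = 0.139). Leaving out 1 array, the change of Relb in CT26 kept its sign but was 0.33 without CT26 alone 1, 1.15 without CT26 alone 2, 1.21 without CT26 co-culture 1 and 0.27 without CT26 co-culture 2. These values also carry the shift between experiments, since the groups then no longer hold both. The difference between the change in RAW and the change in CT26 was -0.73 ± 0.55, with an adjusted p of 1.00, or 0.0632 once experiments were blocked per line.

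Rel and Nfkb2 differed between the lines in opposite directions. Rel, which encodes the c-Rel subunit that is prominent in blood cells, had 6.54 and 6.14 in CT26 alone, 6.37 and 6.38 in CT26 co-culture, 8.70 and 7.80 in RAW alone and 8.80 and 7.77 in RAW co-culture. Every RAW array lay above every CT26 array. Rel was higher in RAW by 1.91 ± 0.40 (SE), or 3.75-fold, when the lines were grown alone (adjusted p = 0.00967) and by 1.91 ± 0.40 in co-culture (adjusted p = 0.0096). Its co-culture changes were -0.17 and 0.24 in CT26 and 0.10 and -0.03 in RAW, of mixed sign in both lines.

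Nfkb2, which encodes the precursor p100 and its product p52, stood at 9.78 and 10.53 in CT26 alone, 9.93 and 10.83 in CT26 co-culture, 8.24 and 8.71 in RAW alone and 8.29 and 8.88 in RAW co-culture. Every CT26 array lay above every RAW array. Nfkb2 was lower in RAW, by -1.68 ± 0.39 (SE), 3.20-fold, when grown alone (adjusted p = 0.015) and by -1.79 ± 0.39 in co-culture (adjusted p = 0.0114). It was higher in co-culture in both experiments of both lines, by 0.15 and 0.31 in CT26 and by 0.05 and 0.18 in RAW, changes that did not pass without a block (adjusted p = 1.00 each) or with one per line (adjusted p = 0.86 and 0.57). A second probe set of Nfkb2 gave a smaller difference between the lines, -0.40 grown alone and -0.66 in co-culture, and its change in RAW was -0.18. In the limma fit of all probe sets without a block, its difference did not pass grown alone (adjusted p = 0.0755, or 0.00756 with a block per line). It passed in co-culture (adjusted p = 0.013).

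Among the inhibitors, Nfkbie had co-culture changes of opposite direction in the lines, each of 1 sign in both experiments. Nfkbie encodes IkB-epsilon, which retains Rela and Rel dimers and is resynthesised after NF-kB activation. In CT26 it stood at 7.25 and 6.43 alone and at 7.99 and 7.38 in co-culture, higher by 0.73 and 0.95 within experiments. In RAW it stood at 8.17 and 7.64 alone and at 7.41 and 7.09 in co-culture, lower by 0.77 and 0.55. In neither line did the groups overlap.

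The mean change of Nfkbie was 0.84 ± 0.34 (SE), 1.79-fold, in CT26 and -0.66 ± 0.34, 1.58-fold lower, in RAW. Neither passed without a block (adjusted p = 1.00 each). With a block per line, a fit that leaves 2 residual degrees of freedom, the lower level in RAW passed (adjusted p = 0.0183). The higher level in CT26 ranked 7 of 13196 genes by p there but did not pass (adjusted p = 0.139). With 1 block shared by the lines neither passed (adjusted p = 0.0837 in RAW and 1.00 in CT26). Without 1 array the groups no longer hold both experiments, so the size of both changes then also carries the shift between experiments. In CT26 the change was 1.25 without CT26 alone 1, 0.43 without CT26 alone 2 and 0.54 without CT26 co-culture 1. In RAW it was -0.40 without RAW alone 1, against a range of -0.93 to -0.40 over all arrays left out. The difference between the changes was -1.50 ± 0.48, with an adjusted p of 1.00 without a block. That p was 0.0822 for the shared block and 0.00813 for the block per line. Both probe sets of Nfkbie moved the same way: the dimmer one changed by 0.76 in CT26 and by -0.60 in RAW, a difference of -1.37, and it ranged from 5.49 to 6.64 over the arrays, near the floor. In the fit of all probe sets with a block per line, its change in RAW did not pass (adjusted p = 0.0505, against 0.0353 for the brighter one). The difference between its changes passed there (adjusted p = 0.0385).

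The order of the lines for Nfkbie differed with the condition. Grown alone, it was higher in RAW by 1.07 ± 0.34 (SE), 2.10-fold (adjusted p = 0.0492), and in co-culture the order of the means was turned, at -0.43 ± 0.34 (adjusted p = 0.386, or 0.00802 with a block per line). From the highest mean to the lowest, the groups were RAW alone, CT26 co-culture, RAW co-culture and CT26 alone, and each neighbouring pair in that order overlapped.

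**Figure D2:**
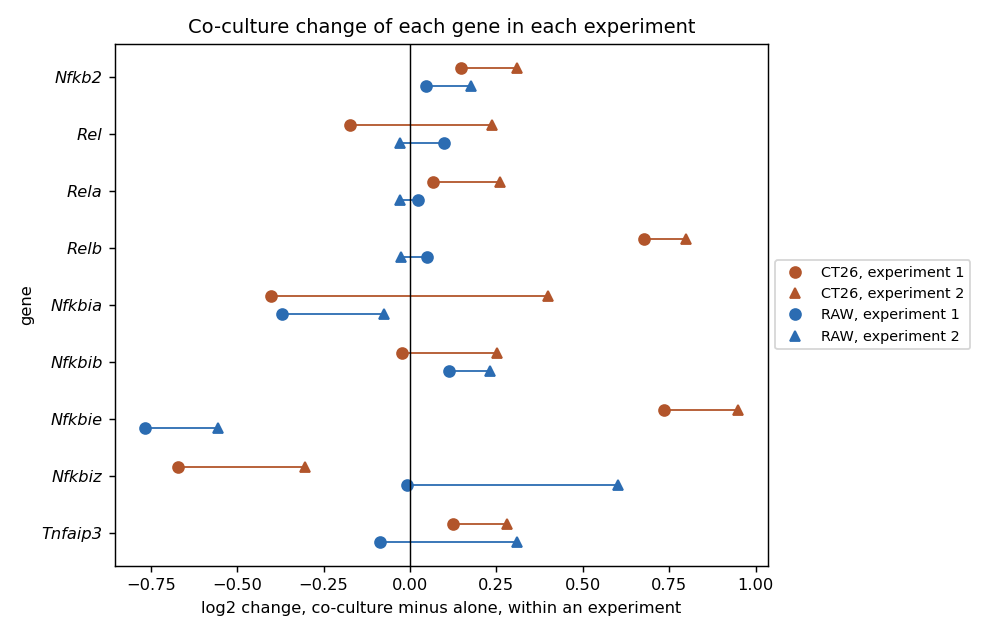
Log2 change from growth alone to co-culture (horizontal axis) of each gene (vertical axis), for each line and experiment separately. Circles are experiment 1 and triangles experiment 2; for Nfkbie the CT26 points lie at 0.73 and 0.95 and the RAW points at -0.77 and -0.55, while the points of Nfkbia in CT26 lie on both sides of 0.

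Nfkbia encodes IkB-alpha, the inhibitor that is destroyed and remade fastest in the canonical route. It had 12.75 and 11.08 in CT26 alone, 12.34 and 11.48 in CT26 co-culture, 13.92 and 13.57 in RAW alone and 13.55 and 13.49 in RAW co-culture. Every RAW array lay above every CT26 array. The CT26 alone arrays differed from each other by 1.67, more than any co-culture change of the gene. Its co-culture changes in CT26 were -0.40 and 0.40, opposite in the experiments, and in RAW -0.37 and -0.08. The difference between the lines was 1.83 ± 0.53 (SE), 3.56-fold higher in RAW, when grown alone (adjusted p = 0.0349) and 1.61 ± 0.53 in co-culture (adjusted p = 0.0549, or 0.000237 with a block per line). The 5 probe sets of Nfkbia gave differences between the lines grown alone from 1.77 to 2.50, and in co-culture from 1.36 to 2.41. In the limma fit of all probe sets without a block, the co-culture difference of the other probe sets passed (adjusted p from 0.00105 to 0.0227). That of the one used did not (adjusted p = 0.0662). In RAW the co-culture changes of the 5 probe sets ran from -0.29 to 0.095. In CT26 they ran from -0.05 to 0.25, and 0 of 5 moved the same way in both CT26 experiments.

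Nfkbib encodes IkB-beta, a more slowly turned over inhibitor. It had 8.89 and 9.31 in CT26 alone, 8.87 and 9.57 in CT26 co-culture, 9.24 and 9.5003 in RAW alone and 9.35 and 9.73 in RAW co-culture, and neighbouring groups overlapped. It was higher in RAW co-culture than in RAW alone by 0.11 and 0.23, with a mean of 0.17 ± 0.27 (SE; adjusted p = 1.00). A second probe set, with a mean of 4.68 over the arrays, was too dim to be tested.

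Nfkbiz encodes IkB-zeta, an atypical family member that acts in the nucleus as a co-activator for a subset of NF-kB targets. It had 8.83 and 8.65 in CT26 alone, 8.16 and 8.35 in CT26 co-culture, 9.77 and 8.17 in RAW alone and 9.76 and 8.77 in RAW co-culture. The CT26 groups did not overlap, with changes of -0.67 and -0.30, whereas in RAW the changes were -0.01 and 0.60 and the groups overlapped. The mean change in CT26 was -0.49 ± 0.53 (SE; adjusted p = 1.00, or 0.798 with a block per line). Of its 3 probe sets, 2 were lower in both CT26 experiments, and the third had a mean change of -0.03. The lines did not separate when grown alone (0.23 ± 0.53). In co-culture every RAW array lay above every CT26 array, at 1.01 ± 0.53 (adjusted p = 0.195, or 0.00126 with a block per line).

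Tnfaip3 encodes A20, a ubiquitin-editing enzyme that shuts off signalling upstream of the IkB kinases. It stood at 8.69 and 8.68 in CT26 alone, 8.81 and 8.96 in CT26 co-culture, 9.21 and 7.96 in RAW alone and 9.13 and 8.28 in RAW co-culture. The CT26 co-culture arrays both lay above the CT26 alone arrays, by 0.12 and 0.28 within experiments. In RAW the experiments moved in opposite directions, -0.09 and 0.31. The mean change in CT26 was 0.20 ± 0.42 (SE; adjusted p = 1.00, or 0.902 with a block per line). The other probe set of Tnfaip3 was also higher in both CT26 experiments, with a mean change of 0.30. Unlike the one used, it was higher in both RAW experiments too, by 0.17 and 0.33. That RAW change did not pass in limma with a block per line (adjusted p = 0.301).

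The experiments differed in level, in a direction that differed between genes and between probe sets of 1 gene. The shifts given first are those of the probe set used for each gene. Rela, Relb, Nfkb2 and Nfkbib were higher in experiment 2 in 4 of 4 groups, by 0.26 to 0.95, and Nfkbia and Nfkbie were lower in 4 of 4 groups, by up to 1.67 for Nfkbia and by 0.32 to 0.82 for Nfkbie. Rel, Nfkbiz and Tnfaip3 were lower in experiment 2 in both RAW groups, with differences of -0.91, -1.61 and -1.25 in RAW alone. The dimmer probe set of Nfkbie was instead higher in experiment 2 in every group, with 5.49 and 5.95 in CT26 alone. Some probe sets of Nfkbia were higher in experiment 2 in both RAW groups, such as 1 with 11.89 and 12.55 in RAW alone.

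In RAW, co-culture called 0 of the 9 family genes in limma without a block, with 0 at an unadjusted p under 0.05, against 0.25% of all genes called. With a block per line it called 1 of 9, Nfkbie as lower, against 3.56% of all genes. That fit also called 1 of 12 macrophage markers lower and 0 of 10 CT26 markers (limma, 0 at an unadjusted p under 0.05), and the part of the marker in the Nfkbie value was not tested. By sign alone, 2 of 9 (Nfkb2 and Nfkbib) were higher in both experiments and 2 of 9 (Nfkbia and Nfkbie) were lower in both, against 32.5% and 29.1% of all genes. These counts use 1 probe set per gene. The second probe set of Nfkb2 was lower in both RAW experiments. Of the 5 probe sets of Nfkbia, 2 were lower in both and 1 was higher in both, whereas 2 of 2 of Nfkbie were lower in both. The other probe set of Tnfaip3 and 1 of the 3 of Nfkbiz were higher in both. The median change of the family in RAW was 0.034, against 0.0083 over all genes.

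In CT26, co-culture called 0 of 9 in limma with and without a block, where 0% of all genes were called either way. At an unadjusted p under 0.05 there was 1 gene without a block, Nfkbie, and there were 4 with a block per line, namely Relb, Nfkbie, Nfkbiz and Nfkb2, beside 107 and 752 of all 13196 genes at that p. By sign alone, 5 of 9 (Nfkb2, Rela, Relb, Nfkbie and Tnfaip3) were higher in both experiments and 1 of 9 (Nfkbiz) was lower in both, against 23.8% and 30.1% of all genes. The family median was 0.16, against -0.012 over all genes. Beside these values, the mean level of the macrophage markers in CT26 co-culture lay within the range of CT26 alone, and 0 of 12 macrophage markers were called in CT26 (limma, 0 at an unadjusted p under 0.05, and 2 at that p with a block per line).

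The test of the change in RAW against the change in CT26 called 0 of 9 family genes without a block, with Nfkbie alone at an unadjusted p under 0.05, against 0.00758% of all genes. With a block per line it called 1 of 9, Nfkbie, against 0.743% of all genes.

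Between the lines grown alone, 4 of 9 family genes were called, Rel, Nfkbia and Nfkbie higher in RAW and Nfkb2 lower, against 34.6% of all genes. With a block per line the count was also 4 of 9, against 58.6%. In co-culture 2 of 9 were called, Rel and Nfkb2, against 34.8% of all genes. With a block per line 7 of 9 were called there, all but Rela and Tnfaip3, against 58%. With so many of all genes called, these counts are no result about the family. The lines also differ in harvest, since CT26 cells were taken up with trypsin and RAW cells were lysed on the insert, and harvest and line cannot be told apart.

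**Figure D3:**
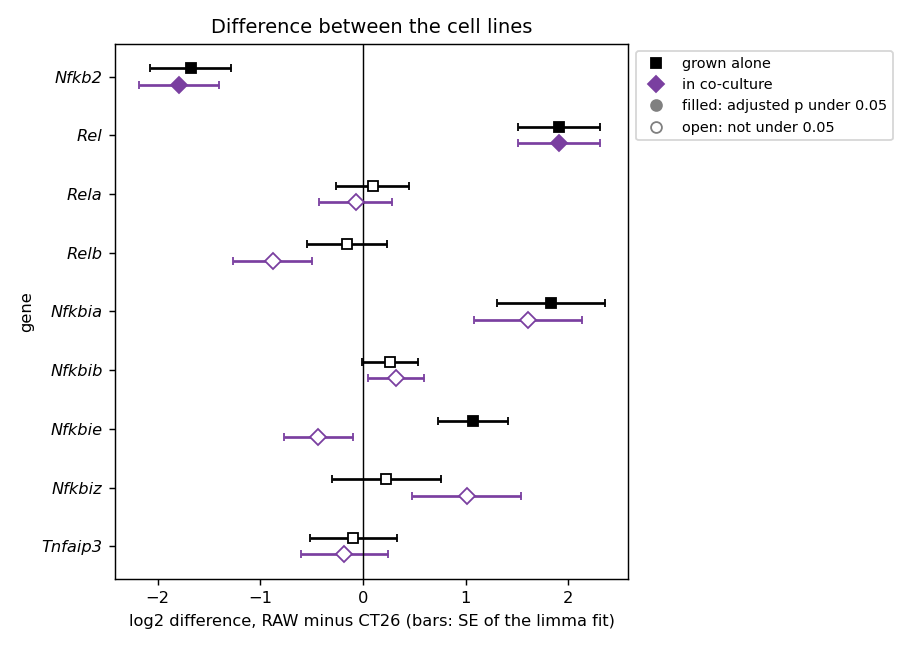
Log2 difference RAW minus CT26 (horizontal axis) for each family gene (vertical axis), grown alone (squares) and in co-culture (diamonds), with bars of 1 SE from limma without a block. Filled symbols passed the threshold; Rel lies at 1.91 in both conditions and Nfkb2 at -1.68 and -1.79, while Nfkbie lies at 1.07 grown alone and -0.43 in co-culture.

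The calls between the lines rested on few arrays. Grown alone, 0 of 9 passed without the array CT26 alone 2 or without RAW alone 1, where Rel had adjusted p = 0.0634 and 0.0503 and Nfkb2 0.0925 and 0.0823. Without CT26 alone 2 the difference of Nfkbia was 0.996 and that of Nfkbie 0.66, values that also carry the shift between experiments. Leaving out RAW alone 2, or either array of RAW in co-culture, left 2 of 9, Nfkb2 and Rel. The call of Nfkbie also ended without a filter on dim genes (adjusted p = 0.0573), after cyclic loess normalization (adjusted p = 0.0549), with the most variable probe set of each gene (adjusted p = 0.0518) and, like that of Nfkbia, in a fit of the 4 arrays compared (adjusted p = 0.0622 and 0.0554). In co-culture Nfkb2 no longer passed without CT26 co-culture 2 (adjusted p = 0.0596) or RAW co-culture 1 (adjusted p = 0.0649), and Rel passed without any 1 array. Relb passed there without CT26 co-culture 1 (adjusted p = 0.0469) and Nfkbia without CT26 alone 1 or 2 (adjusted p = 0.00943 each).

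Of a list of 40 other genes of the pathway, which holds receptor adaptors, ubiquitin enzymes, kinases and atypical inhibitors, 36 were tested and 0 were called for co-culture in either line without a block, with 0 at an unadjusted p under 0.05 in each. The median change was 0.00052 in RAW and -0.026 in CT26. With a block per line 1 of 36 was called higher in RAW and 0 in CT26 (7 and 2 at an unadjusted p under 0.05), against 3.56% and 0% of all genes called, so the count of 1 is no result about the list. That gene was the IkB kinase relative Ikbke. It had a level of 8.35 ± 0.50 (SD, n = 2) in RAW alone. In RAW co-culture it was 8.98 ± 0.67, which differs by 0.63 ± 0.35 (SE; adjusted p = 0.0339 with that block and 1.00 without). The largest statistics of the list otherwise, none past the threshold, belonged in RAW to Tnip1, an A20 partner (-0.37 ± 0.17), and Irak2, a kinase of the interleukin-1 receptor complex (-0.33 ± 0.20), and in CT26 to the adaptor Myd88 (-0.25 ± 0.15) and Tab3 (-0.20 ± 0.15). The next, Irak3, lay under the floor in both CT26 groups, so that its difference there has no meaning as a change. Map3k14, the kinase of the non-canonical route, had 0.022 ± 0.26 in CT26 and -0.015 ± 0.26 in RAW, and was named for its role after its values were seen. The difference between the changes in the lines was called for 0 of 36 with and without a block (limma, 0 at an unadjusted p under 0.05 without a block and 3 with one per line), and its largest statistics belonged to Tnip1 (-0.54 ± 0.24), Myd88 (0.43 ± 0.21) and the TNF receptor adaptor Tradd (-0.35 ± 0.27).

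Between the lines grown alone, 11 of the 36 pathway genes were called higher in RAW and 3 lower, and in co-culture 11 higher and 1 lower. A block per line raised these counts to 23 of 36, 18 of them higher, and to 25 of 36, 18 of them higher. Over all genes 34.6% and 34.8% were called without a block and 58.6% and 58% with it, so these counts are no result about the list. Irak3, an inhibitory kinase relative of Toll-like receptor signalling, stood at 7.77 in RAW alone and under the floor, at 4.34, in CT26 alone. Among the called genes above the floor in both lines, the largest differences grown alone belonged to the atypical inhibitor Nfkbid (2.76 ± 0.22, SE), to Tnip1 (2.40 ± 0.17), to the atypical IkB gene Bcl3 (1.86 ± 0.50) and to Malt1 (1.704 ± 0.17). Lower in RAW were Traf5 (-0.79 ± 0.22), the deubiquitinase gene Cyld (-0.67 ± 0.18) and Tax1bp1 (-0.39 ± 0.11). Adjusted p lay between 4.57e-06 for Irak3 and 0.0323 for Tax1bp1. In co-culture, where Irak3 was again under the floor in CT26 (4.14 against 7.78 in RAW), Nfkbid (2.63), Malt1 (1.96), Ikbke (1.92) and Tnip1 (1.86) had the largest differences, and Tax1bp1 (-0.41) was the gene called lower.

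Of a list of 46 known NF-kB targets, 38 were tested, and 1 was called for co-culture in RAW, against 0.25% of all genes. Ltb, which encodes lymphotoxin beta, a TNF family ligand of the non-canonical route, rose from 5.93 ± 0.01 (SD, n = 2) in RAW alone to 8.04 ± 0.60 in RAW co-culture, by 2.12 ± 0.26 (SE; adjusted p = 0.0421), with 2.55 and 1.69 in the experiments. In CT26 Ltb lay under the floor, at 4.77 alone and 4.65 in co-culture. Its call in RAW held without RAW co-culture 2 (2.54, adjusted p = 0.017) and ended without any other array: adjusted p was 0.116 without CT26 alone 1 or 2, 0.0834 without CT26 co-culture 1 or 2, 0.249 and 0.221 without RAW alone 1 and 2, and 0.0794 without RAW co-culture 1, where the change was 1.69. It also ended with the RAW arrays fitted by themselves (adjusted p = 0.235) and with the most variable probe set of each gene (adjusted p = 0.0617). With a block per line 3 targets were called higher in RAW, Ltb, Ccl7 and Ccl2, and 3 lower, Ptgs2, Tnfaip2 and Sdc4, against 3.56% of all genes called. The 4 of these other than Ltb and Ccl7 were named after their values were seen. Among these, Ccl7, a chemokine that attracts monocytes, had 1.73 ± 0.37 and adjusted p = 0.27 without a block and 0.00983 with it, and Ptgs2, which encodes cyclooxygenase-2, had -0.61 ± 0.51 and adjusted p = 1.00 and 0.0329. Ier3 had the next largest statistic without a block (0.82 ± 0.28, adjusted p = 0.743). The median over the 38 targets was 0.088 in RAW.

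In CT26, 0 of the 38 targets were called with or without a block (limma, 2 at an unadjusted p under 0.05 without a block and 5 with one per line), with a median of 0.079. The largest statistics, none past the threshold, belonged to Tnfrsf9, a co-stimulatory TNF receptor (0.94 ± 0.18, SE), Ccl5 (0.41 ± 0.15) and the chemokine Cxcl10 (0.73 ± 0.32). Tnfrsf9 stood at 7.50 ± 0.24 (SD, n = 2) in CT26 alone and 8.44 ± 0.20 in co-culture. The difference between the changes in the lines was called for 0 of 38 without a block (limma, 4 at an unadjusted p under 0.05), against 0.00758% of all genes. Once experiments were blocked per line it was called for Ltb (2.24 ± 0.37, adjusted p = 0.017, and 0.426 without a block), against 0.743% of all genes. The CT26 values of Ltb all lay under the floor. The next largest statistics belonged to Tnfrsf9 (-1.10 ± 0.25) and Ccl7 (1.58 ± 0.52).

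Between the lines grown alone, 18 of the 38 targets were called higher in RAW and 6 lower, and in co-culture 18 higher and 7 lower. Blocked by experiment within each line, the counts were 20 higher and 10 lower in each condition. Over all genes 34.6% and 34.8% were called without a block and 58.6% and 58% with it, and nothing particular to the list is read from the counts. Of the 5 called genes with the largest fitted difference, 4 lay under the floor in CT26, so only their levels are given and the differences have no order. The lectin receptor gene Clec4e had 12.39 in RAW and 4.08 in CT26 when grown alone, the chemokine genes Ccl3 and Cxcl2 had 11.36 and 9.26 in RAW and 4.41 and 4.43 in CT26, and the adhesion molecule gene Icam1 had 10.48 and 4.30. The chemokine gene Ccl2, above the floor in both, was higher in RAW by 5.48 ± 0.66 (SE). The adhesion molecule Vcam1 (-4.12 ± 0.18), Cxcl1 (-1.40 ± 0.40), Ccl5 (-1.05 ± 0.15), the caspase inhibitor Cflar (-1.05 ± 0.19) and Tnfrsf9 (-0.80 ± 0.18) were the furthest below among the genes called lower, with adjusted p of at most 0.0336 for the 10 genes. In co-culture Ccl2 was higher in RAW by 6.81, and Clec4e, Ccl3, Icam1 and Cxcl2 stood at 12.30, 11.81, 10.30 and 10.33 in RAW and under the floor in CT26. Among the genes called lower there, the furthest below were Vcam1 (-4.35), Ptgs2 (-1.997), Tnfrsf9 (-1.90), Gadd45b (-1.25) and Tnfaip2 (-1.25).

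**Figure D4:**
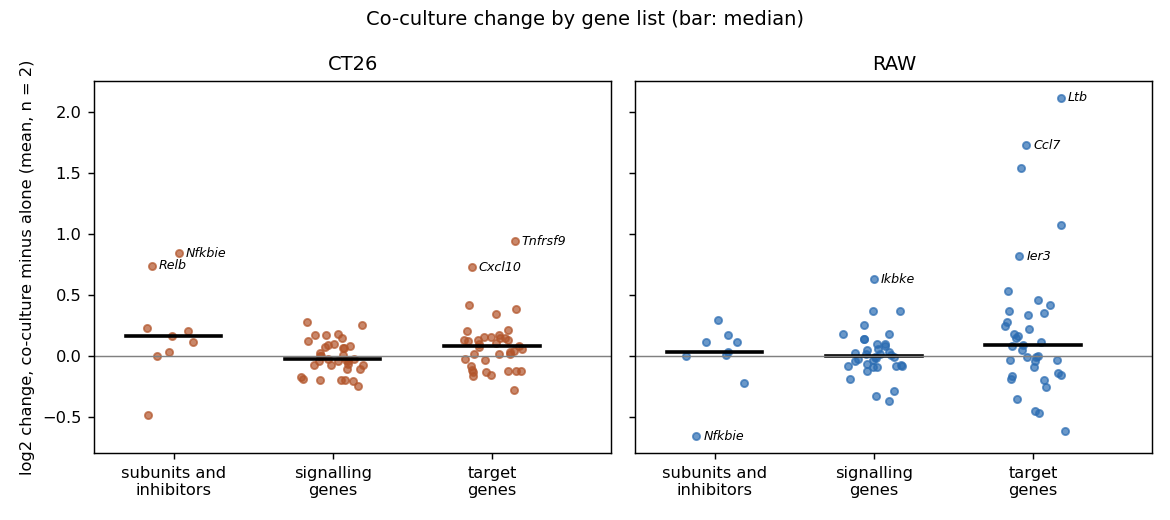
Log2 change from growth alone to co-culture (vertical axis, mean of 2 experiments) of each tested gene of the 9 subunits and inhibitors, 36 signalling genes and 38 target genes (horizontal axis), in CT26 (left) and RAW (right). Bars are list medians, which lie between -0.026 and 0.16; Ltb at 2.12 in RAW is the point that passed without a block.

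The genes with the pattern most like each family gene were taken as the 3 with the highest Pearson correlation over the 8 arrays, after each line was centred on its own mean. They were picked as the highest among 13196 tested genes, so the size of r is a description only. This pattern holds both the co-culture change and the shift between experiments, and the arrays share their normalization. For Nfkbie these were Slc6a19 (r = 0.975), H2ac19 (r = 0.962) and Pbld2 (r = 0.952). Slc6a19 ranged from 5.58 to 5.79 and Pbld2 from 5.13 to 5.41 over the arrays, near the floor. H2ac19 had 7.67, 7.31, 7.96 and 7.64 in CT26 alone 1 and 2 and CT26 co-culture 1 and 2, and 8.48, 8.23, 8.31 and 8.01 in the RAW arrays in the same order. For Relb they were Gnmt (r = 0.979), Tubb4a (r = 0.974) and Slc35a2 (r = 0.965), of which Gnmt ranged from 5.35 to 5.73, near the floor. For Nfkbia they were Wdr7 (r = 0.996), Cox8a (r = 0.976) and Ackr3 (r = 0.967), of which Ackr3 lay under the floor on the RAW arrays, at 3.93 to 4.07. For Nfkbib they were Cenpt (r = 0.992), Smg9 and Pex19. For Nfkb2 they were Dtx3 (r = 0.999), Pcgf2 and Zfp358, and for Rela Ptov1 (r = 0.998), Tom1l2 and Atxn7l3. For Rel they were 1700001C19Rik (r = 0.994), Sfr1 and Sh3gl2. Of these, 1700001C19Rik ranged from 5.34 to 5.94 and Sh3gl2 from 5.41 to 5.86, near the floor. For Nfkbiz they were Cacybp (r = 0.990), Gm6211 and Rpa2, and for Tnfaip3 Gprin1 (r = 0.992), Tmem176a and Cenpm. Within the family the highest correlations were those of Nfkb2 with Nfkbib (r = 0.98) and with Rela (r = 0.98), genes that shared the higher level in experiment 2.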

How the data were processed

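RNA of CT26 and RAW cells was measured on 8 single-colour Affymetrix arrays. The deposited values are log2 expression values, which, per the submitters' processing notes, the authors made by RMA with affy. No version is given there. RMA compresses low signals, and normalization between arrays removes any change in total RNA per cell. After 64 array controls were left out, 34945 of 45037 probe sets had 1 gene symbol in the platform annotation, 932 had several and 9160 were not listed. For each gene the single-symbol probe set of highest mean was used, and the gene was tested if, in at least 1 group, both arrays had it over their 40th percentile.

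Group means were fitted over the 8 arrays and 13196 genes with limma 3.58.1 in R 4.3.3 (two-sided, Benjamini-Hochberg over all genes, threshold 0.05), without a block. Probe sets were fitted likewise. The fit without a block was tested on simulated data that held no shift between experiments, and the fits with a block were not so tested. Errors are SEs of this fit or the SD of 2 arrays. Replicate numbers mark the 2 experiments: deviations from the group mean, compared between arrays with 1 number, correlated at 0.484 to 0.765 across genes in every pair of groups, so the numbers were taken to pair the samples, and fits with the experiment as a block were alternatives. The labels do not say more about how cultures were separated, so p-values measure the spread between these samples. The kappa B consensus was searched on both strands with its usual degenerate letters. Alternatives varied the block, probe set, filter, normalization, moderation and arrays. The family and the lists were chosen with earlier results of these data known. From each list the text names up to 5 called genes per direction, or the 3 largest statistics where fewer than 3 were called.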

Additional observations from a re-analysis of the deposited data

Results flagged for a closer look

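Nfkbie had opposite changes in the lines: it was higher in co-culture in both CT26 experiments and lower in both RAW experiments. The difference between the change in RAW and that in CT26 was -1.50 log2 units, and the test of that difference gave an adjusted p of 1.00 without a block and 0.00813 with a block per line.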

How the results depend on the processing

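The counts of called family genes changed as follows. In RAW co-culture the count of 0 became 1 with a block per line. For the lines grown alone the count of 4 became 2 in a fit of the arrays compared and ran from 0 to 4 with 1 array left out. For the lines in co-culture the count of 2 became 5 with a shared block, 7 with a block per line and 4 with the probe sets of each gene averaged, and ran from 1 to 3 with 1 array left out. For the difference between the changes the count of 0 became 1 with a block per line. In CT26 it was 0 under every alternative. The block per line changed no other count of family genes called beyond these, and its effect on the pathway and target counts stands beside them. Over 5 comparisons, 756 values of single family genes under the alternatives were compared with the reported ones, 59 changed sign, and 0 of these had been called. Without 1 array the groups no longer hold both experiments, so these values also carry the difference between experiments; with 1 array left in a group, its spread is assumed to be that of the others. With 1 array left out, for the co-culture change in RAW the range was -0.18 to 0.41 for Nfkb2, -0.48 to 0.55 for Rel, -0.31 to 0.30 for Rela, -0.21 to 0.23 for Relb, -0.016 to 0.36 for Nfkbib, -0.51 to 1.10 for Nfkbiz and -0.51 to 0.74 for Tnfaip3. The changes of Nfkbie and Relb in CT26 kept their sign but not their size without 1 array, at 0.43 to 1.25 and 0.27 to 1.21, with Nfkbie at -0.93 to -0.40 in RAW and at -1.91 to -1.09 for the difference between the changes. With 1 array left out, for the co-culture change in CT26 the range was -0.23 to 0.68 for Nfkb2, -0.16 to 0.23 for Rel, -0.21 to 0.54 for Rela, -0.84 to 0.83 for Nfkbia and -0.23 to 0.46 for Nfkbib. With 1 array left out, for the difference between the lines grown alone the range was -0.21 to 0.40 for Rela, -0.57 to 0.26 for Relb, -0.58 to 1.03 for Nfkbiz and -0.72 to 0.53 for Tnfaip3. With 1 array left out, for the difference between the lines in co-culture the range was -0.45 to 0.31 for Rela, -0.025 to 0.67 for Nfkbib and -0.61 to 0.24 for Tnfaip3. Likewise, for the difference between the changes in the lines the range was -0.57 to 0.34 for Nfkb2, -0.51 to 0.52 for Rel, -0.55 to 0.21 for Rela, -1.06 to 0.61 for Nfkbia, -0.29 to 0.40 for Nfkbib, -0.023 to 1.59 for Nfkbiz and -0.71 to 0.53 for Tnfaip3. Of the other alternatives, averaging the probe sets of a gene turned Nfkb2 in RAW to -0.034, Nfkbia in CT26 to 0.073 and Nfkbib in CT26 to -0.015, and cyclic loess turned Relb in RAW to -0.0019, Nfkbia in CT26 to 0.026 and the difference between the changes of Rel to -0.013; each of these reported values was below 0.12 in size.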
